A study of Arabidopsis thaliana with 12 samples.

Results

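The comparison described here sets roots of the hni9 mutant against roots of the wild type (WT) of Arabidopsis thaliana, both kept at low nitrogen. Its members are the 3 hni9 arrays and the 3 WT arrays that the labels place at 0.3 mM KNO3, or 6 of the 12 arrays of the study. The 6 other arrays hold hni9 and WT roots at 10 mM NH4NO3, 3 of each, and enter where the change of hni9 at low nitrogen is set beside that at high nitrogen. Plants of all 4 groups were at steady state on their supply, and the supplies differ both in the nitrogen salt and in its concentration. The mutant is written hni9-1, hni9-2 and hni9 in the titles of replicates 1, 2 and 3, and the labels do not say whether these numbers stand for alleles, so the hni9 arrays may differ by allele as well. They also do not state the background line, the age or the number of plants behind an array.

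HNI9 encodes the Arabidopsis IWS1 protein, a conserved factor that travels with RNA polymerase II during transcript elongation and is known for its part in chromatin marks at transcribed genes. Mutants in it were found in a search for plants that keep a nitrate transporter gene active under ample nitrogen. Roots short of nitrate are known to raise uptake systems and to shift carbon and mitochondrial metabolism. HNI9 itself was not analysed here, since no probe set tested carries its name, so the genotype of the hni9 arrays was not checked by the level of the mutated gene.

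Each array gives an intensity in arbitrary units for every probe set, scaled by the authors to a common mean. The median intensity was 199 to 216 on the hni9 arrays and 205 to 217 on the WT arrays at low nitrogen. All changes below are log2 fold changes of intensity + 16, hni9 minus WT, with the standard error from a limma fit to all 12 arrays (n = 3 arrays per group) and a p adjusted over the 22746 probe sets tested. A change is called where that adjusted p is under 0.05, and "rose" and "fell" are written of called changes alone. As a sign of RNA quality, the GAPDH control read 3′ over 5′ gave ratios of 0.976 to 1.27 on the hni9 arrays and of 0.921 to 1.19 on the WT arrays at low nitrogen, so these groups overlapped. At high nitrogen the ratios were 1.03 to 1.25 on the hni9 arrays and 1.31 to 1.35 on the WT arrays, with no overlap. The WT ratios at high nitrogen also lay above all those of WT at low nitrogen. A gene counts as measured here where the annotation gives it a probe set that lists exactly 1 gene. No gene is listed for 8730 probe sets and several for 503, so a gene not measured may still have been read on the array. Of 8 root-enriched marker genes, 5 were measured, with a median change of -0.55. All 5 had a change below 0, against 50.3% of all probe sets, and 2 fell, against 1.33%. Their summed intensity was 19660 to 29180 on the hni9 arrays and 31050 to 34990 on the WT arrays, with no overlap. PYK10, a β-glucosidase typical of roots, stood at 18660, 13530 and 20550 in hni9 and at 22840, 19540 and 22320 in WT (adjusted p = 0.407), so the tissue label was borne by a bright root marker in every array. Most of the summed intensity of the root-enriched markers on each array came from PYK10, whose own groups overlapped. RCA, Rubisco activase and a marker of green tissue, was the 1 green marker measured of 13 and stood at 1180, 290 and 238 in hni9 against 503, 500 and 631 in WT (adjusted p = 0.871). Of 10 root hair markers 3 were measured, of which EXPA7 rose and the other two did not pass. No marker of the endodermis, the xylem or the root cap was measured in this sense. In whole roots, fewer cells of a type and less RNA per cell cannot be told apart.

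In hni9 roots at low nitrogen more genes fell than rose, and the falls were larger. Of 22746 probe sets, 469 (2.06%) were called, 303 of them (1.33%) lower and 166 (0.73%) higher in hni9. The median change was -0.91 among the called lower and 0.59 among the called higher probe sets, against -0.0016 over all probe sets. A change of at least 2-fold was called for 132 lower and 33 higher probe sets. In all 469 the 3 hni9 arrays lay wholly above or wholly below the 3 WT arrays, a separation seen in 4166 (18.3%) of all probe sets tested. The annotation gives exactly 1 gene to 233 of the called probe sets, 144 lower and 89 higher. The counts depended on single arrays: without WT replicate 1, 2 or 3 at low nitrogen 241, 213 and 187 probe sets were called. The lower ones then numbered 174, 143 and 135 and the higher ones 67, 70 and 52, and without hni9 replicate 1 or 3 the higher ones numbered 98 and 100.

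**Figure D1:**
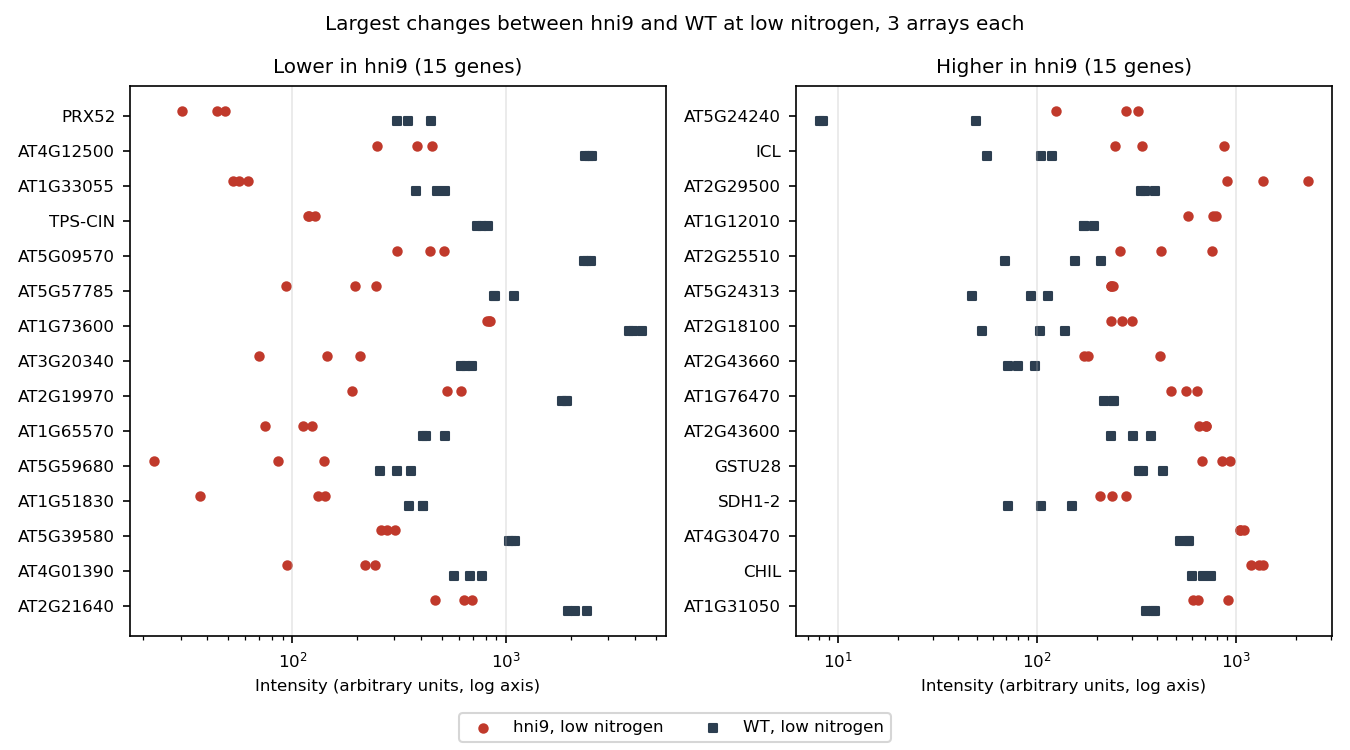
Intensity (arbitrary units, log axis) of 15 genes with the largest called falls (left) and 15 with the largest called rises (right) in hni9 at low nitrogen. Each point is 1 array, red circles for hni9 and dark squares for WT (n = 3 each). Genes were taken from called probe sets with 1 gene, groups apart and the higher mean above the median mean of all probe sets (215.4). The separation of the points was thus set by the choice. GAT1_2.1 fell further (-2.90) than the genes shown but is absent, since its WT mean of 207 was under that median. AT1G73600 stood at 814 to 840 in hni9 and 3764 to 4297 in WT.

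The fall with the smallest adjusted p was that of AT1G73600, which encodes a phosphoethanolamine N-methyltransferase of phosphocholine synthesis, the route to a head group of membrane lipids. Its intensity was 840, 814 and 832 in the hni9 arrays and 4297, 3898 and 3764 in the WT arrays. The 3 hni9 arrays were almost equal and far under every WT array, and the gene fell by 2.24 ± 0.11 on the log2 scale (adjusted p = 7.99e-08). It was the 1 called gene of 7 measured genes of phosphocholine synthesis, against 2.06% of all probe sets, and their median change was -0.03. PMEAMT, which encodes another methyltransferase of the same route, stood at 8869, 10700 and 10660 in hni9 and at 10170, 9946 and 10750 in WT. Its arrays overlapped, with a change of -0.03 ± 0.13 (adjusted p = 0.955).

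Genes known to rise when mitochondria are impaired, the mitochondrial retrograde genes, were mostly lower in hni9. Of 15 such genes 8 were measured, 4 fell and 1 rose, against 1.33% and 0.73% of all probe sets, and their median change was -1.29. AT5G09570, a gene of a small mitochondrial protein with paired cysteine motifs, had 441, 308 and 511 in hni9 and 2318, 2501 and 2378 in WT. Every hni9 array stood far below every WT array, and the gene fell by 2.50 ± 0.27 (adjusted p = 0.000231). AT2G41730, a stress-responsive gene of unknown function, had 1153, 1029 and 1188 in hni9 and 3576, 3899 and 3881 in WT. The groups were again wide apart, with a fall by 1.74 ± 0.19 (adjusted p = 0.000253); its probe set carries the x suffix, which marks probes that can bind other transcripts. AT2G21640, known as a marker of oxidative stress, had 632, 464 and 693 in hni9 and 1951, 2377 and 2096 in WT. AT2G04050, a gene of the MATE efflux carriers, had 214, 274 and 168 in hni9 and 566, 665 and 706 in WT. Neither overlapped, and their changes were -1.83 ± 0.34 (adjusted p = 0.0105) and -1.51 ± 0.29 (adjusted p = 0.0147).

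The member that rose was NDB2, an alternative NAD(P)H dehydrogenase on the outer face of the inner mitochondrial membrane. It stood at 4567, 3524 and 4182 in hni9 and at 2606, 2732 and 2538 in WT, with every hni9 array higher (0.63 ± 0.13, adjusted p = 0.021). Of the others, NDB4, of the same enzyme family, had a change of -1.06 ± 0.56 (adjusted p = 0.452) although its groups did not overlap, at 117 to 189 in hni9 and 259 to 401 in WT. NDB2 was also the 1 called gene of 5 measured genes of alternative respiration, against 2.06% of all probe sets, a list with a median change of -0.15. SDH1-2, which encodes a flavoprotein subunit of succinate dehydrogenase, was the 1 called of 4 measured subunit genes, against 2.06% of all probe sets. It had 280, 206 and 237 in hni9 and 71.7, 104 and 150 in WT, with no overlap (1.08 ± 0.25, adjusted p = 0.0393). The brighter gene for the same subunit, SDH1-1, stood at 3372 to 3896 in hni9 and 3451 to 3864 in WT (-0.01 ± 0.10, adjusted p = 0.994). Some of these calls rested on single arrays. The list counted 3 called members without hni9 replicate 3 and 2 without WT replicate 2 or 3, in place of 5. AT2G21640 missed the threshold without WT replicate 2 (0.0604) or 3 (0.053), and AT2G04050 without hni9 replicate 3 (0.0626) or WT replicate 2 (0.0702) or 3 (0.0808). NDB2 missed it without hni9 replicate 1 (0.083) or 3 (0.0685) or WT replicate 1, 2 or 3 (0.0786, 0.0657 and 0.0959). For SDH1-2 the same held without any hni9 array at low nitrogen (0.131, 0.0539 and 0.0962 for replicates 1 to 3), WT replicate 1 (0.145) or 2 (0.114), and at high nitrogen hni9 replicate 3 (0.05) or WT replicate 2 (0.0558).

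Genes known to be switched on when cells run short of energy or sugar made up another group of falls. Of 9 measured, 5 fell and none rose, against 1.33% lower and 0.73% higher of all probe sets, with a median change of -1.13. The list was not among those planned at the start and was written with earlier results of these data known. These shares thus describe the listed genes alone. GAT1_2.1, a gene of a glutamine amidotransferase-like protein, was near the floor of the arrays in hni9, at 22.1, 11.7 and 7.68, and stood at 202, 265 and 153 in WT. It fell by 2.90 ± 0.47 (adjusted p = 0.00509), and the change was -3.89 where 1 was added before taking log2 and -1.78 where 64 was added. A second probe set of this gene was dim in both groups and did not pass (adjusted p = 0.854). AT1G80380, which encodes the glycerate kinase of photorespiration, had 339, 273 and 288 in hni9 and 632, 650 and 750 in WT. The groups stood apart, with a fall by 1.13 ± 0.16 (adjusted p = 0.00179). AT3G15450, of a family named for aluminium-induced proteins, had 751, 435 and 873 in hni9 and 1569, 1871 and 1980 in WT (-1.43 ± 0.28, adjusted p = 0.0146). AT3G15630 had 297, 113 and 227 in hni9 and 424, 579 and 600 in WT (-1.35 ± 0.25, adjusted p = 0.0103). In both of them hni9 replicate 2 was the lowest array, and all hni9 arrays were under all WT arrays. The genes of leucine breakdown in this list did not pass: MCCA, MCCB and IVD had changes of 0.05, -0.04 and -0.02. Without WT replicate 2 or 3 at low nitrogen 2 members were called, with AT3G15450 at adjusted p = 0.0676 and 0.0803 and AT3G15630 at 0.0595 and 0.0634.

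Hypoxia-induced genes, known to rise when roots lack oxygen, had changes below 0 in 12 of 14 measured members, against 50.3% of all probe sets. Of the 14, 2 fell, beside 1.33% of all probe sets, and the median was -0.57. AT1G33055, a gene of a small protein strongly induced by low oxygen, had 56.4, 62.2 and 52.9 in hni9 and 516, 380 and 474 in WT. The hni9 arrays were close together and several times lower, with a change of -2.68 ± 0.25 (adjusted p = 4.86e-05), which was -2.09 with 64 added. AT4G27450, another hypoxia-induced gene, had 207, 462 and 256 in hni9 and 891, 541 and 645 in WT, where the highest hni9 array came close to the lowest WT array (-1.18 ± 0.24, adjusted p = 0.0189). That call was lost without hni9 replicate 1 (0.0682) or 3 (0.0732) or WT replicate 1 (0.0926) or 3 (0.0678), and the list then had 1 called member. CML38, a calmodulin-like gene of the same response, had 154, 93.5 and 121 in hni9 and 182, 222 and 195 in WT (-0.66 ± 0.23, adjusted p = 0.182).

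**Figure D2:**
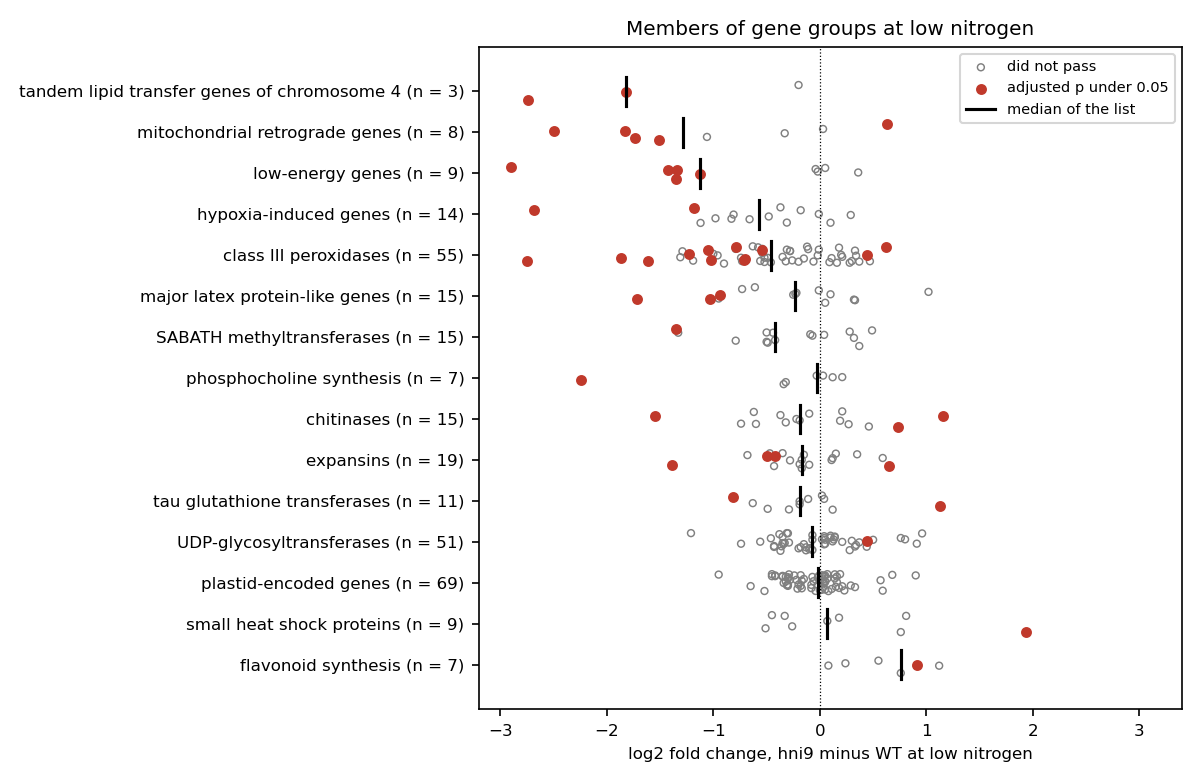
Change of each measured member of 15 gene groups (log2 fold change, hni9 minus WT at low nitrogen), 1 point per gene, filled red where the adjusted p was under 0.05, with a black bar at the group's median. The mitochondrial retrograde genes (median -1.29) and low-energy genes (median -1.13) lie mostly left of 0, the 7 flavonoid genes all lie right of 0 (median 0.76), and the 69 plastid-encoded genes centre on -0.02.

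Class III peroxidases are secreted enzymes that use hydrogen peroxide to cross-link or loosen the cell wall, and they form a large family in roots. Of 55 measured, 10 fell, 2 rose and 43 did not pass, against 1.33% lower and 0.73% higher of all probe sets. The median change was -0.46, and 41 members were below 0, against 50.3% of all probe sets. PRX52, known for a part in lignin formation, had 44.5, 30.5 and 48.2 in hni9 and 310, 447 and 349 in WT. All hni9 arrays were several times lower, and the gene fell by 2.75 ± 0.40 (adjusted p = 0.0021), a change that was -2.03 with 64 added. AT5G39580 had 277, 261 and 301 in hni9 and 1098, 1032 and 1063 in WT, with little spread in either group (-1.87 ± 0.18, adjusted p = 5.85e-05). AT5G64100, among the brightest of the family, had 4562, 4793 and 5026 in hni9 and 9582, 9690 and 9861 in WT. Both groups were tight and far apart, with a fall by 1.02 ± 0.10 (adjusted p = 6.94e-05). AT1G44970 had 382, 256 and 400 in hni9 and 775, 858 and 821 in WT (-1.23 ± 0.15, adjusted p = 0.000534). The other called falls were those of AT4G36430, AT5G64110, AT1G49570, AT2G35380, AT4G26010 and AT4G33420, between -1.61 and -0.54. The 2 rises were smaller: AT1G30870 at 3301, 1975 and 2973 in hni9 and 1765, 1785 and 1670 in WT (0.62 ± 0.14, adjusted p = 0.0364), and AT4G11290 at 1318, 1169 and 1182 in hni9 and 946, 926 and 817 in WT (0.44 ± 0.09, adjusted p = 0.019). The brightest member, AT4G21960, did not pass (-0.11 ± 0.10, adjusted p = 0.754). The number called was 7 without WT replicate 2 or 3 at low nitrogen. All 5 measured root-enriched markers had changes below 0 in the same arrays and 2 of them fell, as given above. Their part in the peroxidase values was not tested.

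Expansins loosen the wall during growth, and of 19 measured 3 fell, 1 rose and 15 did not pass, against 1.33% lower and 0.73% higher of all probe sets, with a median of -0.17. EXLB1, an expansin-like gene, had 64.7, 139 and 118 in hni9 and 335, 248 and 312 in WT, all hni9 arrays lower (-1.39 ± 0.25, adjusted p = 0.00837). EXPA4 and EXPA15 fell by 0.42 ± 0.08 (adjusted p = 0.018) and 0.50 ± 0.10 (adjusted p = 0.0213), calls lost without WT replicate 2 (0.0759 and 0.0889) or 3 (0.0826 and 0.0875), and for EXPA15 also without WT replicate 1 (0.0699). EXPA7, an expansin of root hairs, had 904, 838 and 1016 in hni9 and 504, 640 and 599 in WT. Every hni9 array was higher, and the gene rose by 0.65 ± 0.12 (adjusted p = 0.00862). EXPA18, the other root hair expansin, stood at 594, 459 and 538 in hni9 and 648, 716 and 570 in WT, where the groups overlapped (-0.28 ± 0.13, adjusted p = 0.374). The expansins called numbered 2 without WT replicate 2 or 3. Of 10 measured xyloglucan endotransglucosylases, which cut and rejoin wall polymers, none was called, and the median was -0.13. XTH20 and XTH32, those with the smallest p, had changes of -0.71 ± 0.29 (adjusted p = 0.297) and -0.66 ± 0.24 (adjusted p = 0.226). AT1G65570, a polygalacturonase gene of the root cap, had 74.3, 112 and 123 in hni9 and 409, 516 and 420 in WT, with no overlap (-1.98 ± 0.38, adjusted p = 0.0146). Its call was lost without hni9 replicate 1 (0.057) or WT replicate 1, 2 or 3 (0.0506, 0.0761 and 0.0598).

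AT4G12500 and AT4G12490 lie close together in a run of lipid transfer genes on chromosome 4, some of which are known for a part in systemic immunity. Of 3 measured genes of the run 2 fell, against 1.33% of all probe sets, with a median of -1.82. The planned list of all lipid transfer genes was narrowed to this run. AT4G12500 had 451, 250 and 383 in hni9 and 2520, 2448 and 2335 in WT, and fell by 2.74 ± 0.27 (adjusted p = 7.6e-05). AT4G12490 had 579, 207 and 403 in hni9 and 1287, 1336 and 1379 in WT, and fell by 1.82 ± 0.30 (adjusted p = 0.0056). In both, hni9 replicate 2 was the lowest array and the WT arrays were tight. Genes of such a run are alike in sequence, so their probe sets may share signal. The third measured gene of the run, AT4G12530, was dim and did not pass (adjusted p = 0.904). AT1G50060 and AT2G19970 belong to the CAP family of PR-1-like proteins. AT1G50060 had 362, 371 and 376 in hni9 and 1085, 958 and 1072 in WT, near-constant within hni9 (-1.45 ± 0.11, adjusted p = 8.86e-06). AT2G19970 had 614, 190 and 527 in hni9 and 1931, 1905 and 1820 in WT, with hni9 replicate 2 well under the other two (-2.20 ± 0.29, adjusted p = 0.00112).

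Among chitinases, enzymes that cut a polymer of fungal walls, neighbours went opposite ways. Of 15 measured, 2 rose and 1 fell, against 0.73% higher and 1.33% lower of all probe sets, with a median of -0.19. AT2G43600 had 650, 710 and 704 in hni9 and 302, 373 and 234 in WT, and rose by 1.16 ± 0.15 (adjusted p = 0.00112). AT2G43590, the next gene on the chromosome, had 691, 365 and 872 in hni9 and 1496, 2061 and 1915 in WT, and fell by 1.55 ± 0.26 (adjusted p = 0.00541). Neither gene had overlapping groups. AT2G43620 of the same run rose by 0.73 ± 0.17 (adjusted p = 0.0393), with 288, 202 and 276 in hni9 and 134, 163 and 141 in WT. That call was lost when any 1 of 8 arrays was left out: hni9 replicate 1 (0.13) or 3 (0.124), WT replicate 1 (0.127), 2 (0.0686) or 3 (0.117), and at high nitrogen hni9 replicate 1 (0.0574) or WT replicate 1 (0.0593) or 2 (0.0556). Without any 1 of those 5 arrays at low nitrogen 2 chitinases were called.

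Major latex protein-like genes encode small proteins abundant in roots, and of 15 measured 3 fell and none rose, against 1.33% lower and 0.73% higher of all probe sets, with a median of -0.23. AT4G23670, the brightest of the 3 and also 1 of the root-enriched markers, had 2648, 2258 and 2087 in hni9 and 4892, 4786 and 3832 in WT, with every hni9 array lower (-0.94 ± 0.11, adjusted p = 0.000468). AT4G14060 had 190, 177 and 159 in hni9 and 363, 416 and 348 in WT (-1.03 ± 0.18, adjusted p = 0.00756). AT5G28010 was dim, at 28.2, 10.8 and 21.7 in hni9 and 106, 93.2 and 104 in WT, and its fall by 1.72 ± 0.34 (adjusted p = 0.0151) became a change of -2.36 with 1 added and of -0.98 with 64 added. Its call was lost without hni9 replicate 2 (0.0568) or WT replicate 1, 2 or 3 (0.0611, 0.0532 and 0.0618). The part of the lower root-enriched markers in these values was not tested.

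TPS-CIN, the terpene synthase that makes 1,8-cineole in roots, had 128, 118 and 119 in hni9 and 771, 819 and 730 in WT. The hni9 arrays were nearly equal and several times lower, with a fall by 2.52 ± 0.39 (adjusted p = 0.00302). Of 15 measured SABATH methyltransferases, which methylate small acids, AT5G37990 alone was called, at 1713, 912 and 1725 in hni9 and 3613, 3770 and 3358 in WT (-1.35 ± 0.24, adjusted p = 0.00807). Of all probe sets 2.06% were called. The median of the SABATH list was -0.42, and 2 members were called without hni9 replicate 1 or 3. Of 24 measured cytochrome P450 genes, a large family of oxidising enzymes, 2 fell, against 1.33% of all probe sets, with a median of -0.18. Most of the 24 are CYP71B genes, as are both that fell, so the list does not stand for the whole family. CYP71B26 had 378, 519 and 343 in hni9 and 812, 981 and 872 in WT, all hni9 arrays lower (-1.09 ± 0.17, adjusted p = 0.00293). CYP71B23 changed by -0.63 ± 0.13 (adjusted p = 0.0256), a call lost without hni9 replicate 3 (0.0913) or WT replicate 1, 2 or 3 (0.0583, 0.131 and 0.0597). Of 51 UDP-glycosyltransferases 1 was called, or 2 without hni9 replicate 3, against 2.06% of all probe sets, and the median was -0.07. It was UGT74B1, an enzyme of glucosinolate synthesis, with 2744, 3009 and 2450 in hni9 and 2155, 2038 and 1840 in WT. It rose by 0.44 ± 0.10 (adjusted p = 0.044), a value that leaving out any 1 of 8 arrays moved past the threshold (adjusted p from 0.0554 to 0.187), among them hni9 replicate 1 or 2 and every WT array at low nitrogen.

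The remaining large falls were spread over genes of other kinds. AT5G57785 had 197, 93.5 and 245 in hni9 and 887, 881 and 1083 in WT (-2.40 ± 0.29, adjusted p = 0.000468). AT3G20340 had 145, 70.04 and 206 in hni9 and 617, 649 and 695 in WT (-2.20 ± 0.33, adjusted p = 0.00238). In both genes, for which no role is given here, all hni9 arrays were lower and replicate 2 was the lowest. AT1G51830 and AT5G59680 encode receptor-like kinases with leucine-rich repeats. The first had 142, 37.1 and 132 in hni9 and 406, 408 and 351 in WT (-1.91 ± 0.30, adjusted p = 0.00362), and the second had 140, 22.6 and 85.7 in hni9 and 359, 310 and 256 in WT (-1.92 ± 0.45, adjusted p = 0.0437). Replicate 2 was again the lowest hni9 array in each, and no hni9 array reached the WT values. The call of AT5G59680 was lost when any 1 of 9 arrays was left out (adjusted p from 0.0513 to 0.147), among them hni9 replicates 2 and 3 and each WT array at low nitrogen. AT4G01390, of the TRAF-like family, had 243, 94.2 and 219 in hni9 and 569, 774 and 678 in WT (-1.86 ± 0.36, adjusted p = 0.0146), a call lost without WT replicate 2 (0.074) or 3 (0.0678). Among the 10 genes with the smallest adjusted p were 4 more that fell evenly: AT2G37750, AT1G30750, AT3G25930, of the universal stress protein family, and AT4G17215. Their changes were -1.70 ± 0.15, -1.32 ± 0.12, -1.0 ± 0.10 and -1.09 ± 0.11 (adjusted p between 2.63e-05 and 7.03e-05).

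Replicate 2 stood lowest among the hni9 arrays in 176 of the 303 called lower probe sets, and replicates 1 and 3 in 61 and 66. Over all 22746 probe sets replicate 2 was the lowest hni9 array in 6639, fewer than replicate 1 (7655) or 3 (8452). Without hni9 replicate 2 the mitochondrial, low-energy and peroxidase groups had 5, 5 and 12 called members, as many as with it. The tau glutathione transferases then had 1 in place of 2, succinate dehydrogenase and flavonoid synthesis none in place of 1 each, and the expansins 5 in place of 4.

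Rises in hni9 began with AT1G12010, a gene of ACC oxidase, the enzyme of the last step of ethylene synthesis. It had 764, 797 and 576 in hni9 and 172, 194 and 172 in WT. Every hni9 array was far higher, and the gene rose by 1.89 ± 0.18 (adjusted p = 6.66e-05). It was the 1 gene of ethylene synthesis measured of 13 in the list. ICL, isocitrate lyase of the glyoxylate cycle, which lets plants build sugar from fat, had 335, 870 and 247 in hni9 and 56.0, 119 and 105 in WT. Replicate 2 was the highest, and none of the hni9 arrays came near WT (2.04 ± 0.35, adjusted p = 0.00756). The call of ICL was lost with only the 6 arrays at low nitrogen (0.0542) or without the trend of the variance (0.0546). AT2G29500, a small heat shock protein gene, had 1372, 2292 and 899 in hni9 and 331, 392.4 and 348 in WT, a rise by 1.94 ± 0.25 (adjusted p = 0.000754) with a wide spread among the hni9 arrays. It was the 1 called of 9 measured small heat shock protein genes, against 2.06% of all probe sets, and their median was 0.07.

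GSTU28, a tau class glutathione transferase of detoxification, had 851, 676 and 929 in hni9 and 339, 327 and 427 in WT, a rise by 1.13 ± 0.17 (adjusted p = 0.00232). GSTU22 of the same class had 4667, 3188 and 4995 in hni9 and 7296, 7255 and 7754 in WT, a fall by 0.82 ± 0.18 (adjusted p = 0.0324). They were the 2 called of 11 measured members, against 2.06% of all probe sets, with a median of -0.19. Both had groups that stood apart. The call of GSTU22 was lost without hni9 replicate 2 (0.0931), WT replicate 1, 2 or 3 (0.0926, 0.0994 and 0.127) or WT replicate 2 at high nitrogen (0.0514). AT5G24240, of the phosphatidylinositol 4-kinase family, had 280, 320 and 124 in hni9 and was near the floor in WT, at 49.1, 8.11 and 8.41. Its rise by 2.83 ± 0.45 (adjusted p = 0.00414) was 3.78 and 1.80 with 1 and 64 added. AT1G76470 and AT4G30470, which encode reductases akin to cinnamoyl-CoA reductase, rose by 1.19 ± 0.18 (adjusted p = 0.00287) and 0.91 ± 0.15 (adjusted p = 0.00603). The first had 636, 471 and 562 in hni9 and 244, 240 and 216 in WT, and the second 1049, 1103 and 1047 in hni9 and 524, 574 and 582 in WT, with tight groups in both. AT2G18100 and AT5G24313, for which no role is given here, rose by 1.38 ± 0.26 and 1.40 ± 0.24 (adjusted p = 0.0135 and 0.0077). Both calls were lost with only the 6 arrays at low nitrogen (0.0682 and 0.0566). AT2G25510 and AT2G43660 rose by 1.61 ± 0.37 (adjusted p = 0.0389) and 1.35 ± 0.31 (adjusted p = 0.0382), and each call was lost when any 1 of 7 arrays was left out (adjusted p from 0.0505 to 0.142 and from 0.0504 to 0.139), among them hni9 replicate 2 and WT replicates 1 and 2 at low nitrogen.

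Flavonoid synthesis makes the pigments and UV screens of plants. All 7 measured genes of this list had changes above 0, while 50.3% of all probe sets were below 0. Their median was 0.76, and 1 rose, against 0.73% of all probe sets. This list, too, was not among those planned at the start. DFR, AT5MAT and AT4G14090 were dim, with overlapping groups and changes of 0.24, 1.12 and 0.08 (adjusted p = 0.895, 0.431 and 0.972). CHIL, a chalcone isomerase-like gene, was the 1 called member, at 1301, 1371 and 1184 in hni9 and 604, 685 and 750 in WT. Each hni9 array was higher (0.91 ± 0.20, adjusted p = 0.0324), but the call was lost without hni9 replicate 1, 2 or 3 (0.0856, 0.0851 and 0.0626), WT replicate 1, 2 or 3 (0.126, 0.104 and 0.0805) or WT replicate 2 at high nitrogen (0.0502). UGT78D2, which adds glucose to flavonoids, had 1144, 1708 and 1008 in hni9 and 750, 660 and 803 in WT, apart in every array but not called (0.76 ± 0.19, adjusted p = 0.0597).

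Several groups had no called member. None of 69 plastid-encoded genes was called (1 without WT replicate 3 at low nitrogen), their median was -0.02, and their summed intensity was 91060 to 115600 in hni9 and 100400 to 115400 in WT. The smallest p among them were those of psbM, a photosystem II subunit gene (0.68 ± 0.18, adjusted p = 0.0688, and 0.0492 or 0.0486 without hni9 replicate 2 or WT replicate 3 at high nitrogen), and accD, a gene of fatty acid synthesis (-0.35 ± 0.12, adjusted p = 0.199). NRT2.5, a high-affinity nitrate transporter gene of starved roots, was the 1 measured gene of 30 for nitrate uptake and assimilation. It had 92.1, 92.0 and 73.0 in hni9 and 117, 25.9 and 90.2 in WT, with overlap (0.27 ± 0.48, adjusted p = 0.886). From the lists of chromatin factors, oxygen scavenging, iron deficiency and lignin synthesis 1 gene each was measured: PKDM7D, AER, BHLH101 and HCT had changes of -0.09, 0.28, 0.43 and 0.22, none called (adjusted p = 0.854, 0.444, 0.802 and 0.24). No gene of brassinosteroid synthesis and signalling was matched to a probe set by the annotation, so nothing is known here of their change.

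The change of hni9 at low nitrogen was then set beside that at high nitrogen, whose log2 values come from 6 other arrays. The calls at low and high nitrogen are not independent. Both use the same variance of each probe set, from the fit to the arrays of both supplies. A probe set with a small variance is thus favoured for a call at both, and the part of this in the overlaps was not tested. The GAPDH ratios of hni9 and WT did not overlap at high nitrogen, as given above. Their part in the changes at high nitrogen and in the difference between the supplies was not tested. At high nitrogen 1744 probe sets (7.67%) were called, 985 lower (4.33%) and 759 higher (3.34%). Of the 303 probe sets lower in hni9 at low nitrogen 174 were also called lower at high nitrogen, 57.4% of those lower at low and 17.7% of those lower at high nitrogen. Of the 166 higher ones 59 were also called higher at high nitrogen, 35.5% of those higher at low and 7.77% of those higher at high nitrogen. Without WT replicate 1, 2 or 3 at low nitrogen the shared lower probe sets numbered 105, 96 and 89 and the shared higher ones 26, 29 and 24. The shared higher ones also numbered 36 without hni9 replicate 3 at low nitrogen, 39 and 34 without hni9 replicate 1 or 3 at high nitrogen and 35, 34 and 29 without WT replicate 1, 2 or 3 at high nitrogen. AT1G73600, TPS-CIN and AT5G57785 were lower at both supplies, with changes at high nitrogen of -1.72 ± 0.11, -4.21 ± 0.39 and -3.23 ± 0.29. ICL and AT1G12010 were higher at both, with 2.34 ± 0.35 and 1.04 ± 0.18 at high nitrogen.

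**Figure D3:**
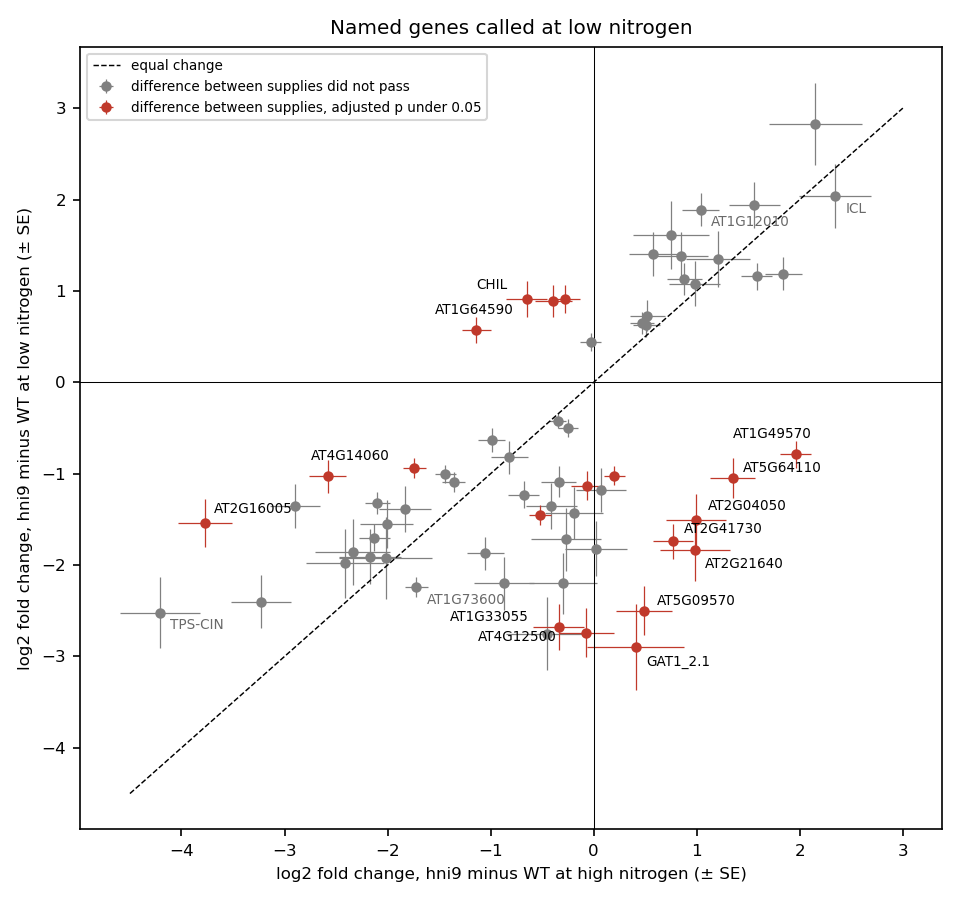
Change of hni9 at high nitrogen (x axis) and at low nitrogen (y axis) for the 64 named genes called at low nitrogen (log2 fold change ± SE, n = 3 arrays per group), red where the difference between the supplies had an adjusted p under 0.05. AT1G49570 lies far to the right with -0.79 at low and 1.96 at high nitrogen, and AT4G12500 and AT1G33055 lie low near the vertical line at 0.

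The difference between the supplies, the change of hni9 at low minus that at high nitrogen, was called for 160 probe sets (0.703%). Of the probe sets called at low nitrogen 53 were among them: 29 lower ones with a negative difference, 10 lower ones with a positive difference and 14 higher ones with a positive difference. The count of 160 was 88 without hni9 replicate 1 at low nitrogen, 254 without hni9 replicate 2 and 76, 67 and 81 without WT replicate 1, 2 or 3. Leaving out an array at high nitrogen gave 247 without hni9 replicate 2 and 77, 81 and 91 without WT replicate 1, 2 or 3. Among the named genes the smallest adjusted p of this difference was that of a peroxidase gene, AT1G49570. It had 269, 211 and 207 in hni9 and 408, 446 and 367 in WT at low nitrogen, and 1210, 1740 and 1597 in hni9 and 418, 348 and 360 in WT at high nitrogen. Thus hni9 was the lower genotype at low nitrogen (-0.79 ± 0.15) and the higher at high nitrogen (1.96 ± 0.15), with a difference of -2.75 ± 0.21 (adjusted p = 3.41e-05). Its call at low nitrogen was lost without hni9 replicate 3 (0.0523) or WT replicate 1 (0.0531) or 2 (0.0705), while that of the difference held without any 1 array. AT5G64110, another peroxidase gene, went the same 2 ways (-1.05 ± 0.22 at low and 1.35 ± 0.22 at high nitrogen, a difference of -2.40 ± 0.32 with adjusted p = 0.00396). Its call at low nitrogen was lost without hni9 replicate 1 (0.0751) or 3 (0.0665) or WT replicate 1 (0.116) or 3 (0.062).

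Of the mitochondrial retrograde genes 5 of 8 had a called difference, against 0.703% of all probe sets. The list's median change was 0.74 at high against -1.29 at low nitrogen. Without the trend of the variance the called differences of AT5G09570, AT2G21640 and AT2G04050 were lost (adjusted p = 0.0519, 0.11 and 0.0664). That of AT2G21640 was also lost without WT replicate 2 at low nitrogen (0.0563). AT5G09570 had 629, 258 and 618 in hni9 and 362, 250 and 382 in WT at high nitrogen. There the groups overlapped, and the difference from low nitrogen was -2.99 ± 0.39 (adjusted p = 0.00389). AT2G41730 had 742, 416 and 891 in hni9 and 404, 335 and 387 in WT at high nitrogen, where it rose by 0.77 ± 0.19 (adjusted p = 0.0255), a difference of -2.51 ± 0.28 (adjusted p = 0.00109). The WT arrays at low nitrogen held by far the highest values of both genes among the 4 groups.

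AT4G12500 and AT1G33055 fell at low nitrogen and had changes of -0.07 ± 0.27 and -0.34 ± 0.25 at high nitrogen, with differences of -2.66 ± 0.39 (adjusted p = 0.00566) and -2.34 ± 0.35 (adjusted p = 0.00669). The root-enriched gene AT2G16005, of a lipid recognition domain family, and the latex protein-like gene AT4G14060 fell at both supplies and further at high nitrogen. The differences were 2.23 ± 0.37 (adjusted p = 0.012) and 1.55 ± 0.25 (adjusted p = 0.0113). CHIL had 1379, 635 and 1158 in hni9 and 1495, 1531 and 1750 in WT at high nitrogen, a change of -0.65 ± 0.20 that did not pass (adjusted p = 0.0667), and a difference of 1.56 ± 0.29 (adjusted p = 0.0217). That difference missed the threshold when any 1 of 6 arrays was left out (adjusted p from 0.0545 to 0.0704), among them hni9 replicate 1 and WT replicates 1 and 2 at low nitrogen and each WT array at high nitrogen.

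**Figure D4:**
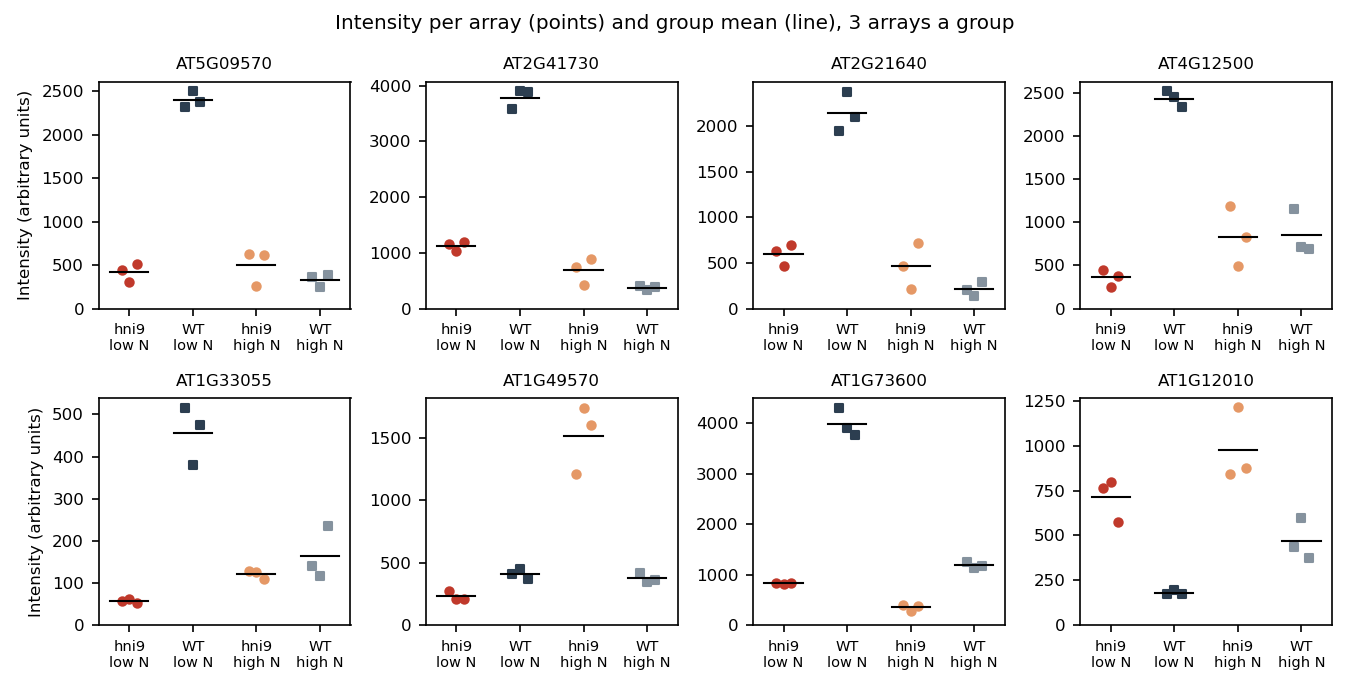
Intensity per array (points, arbitrary units, linear axis from 0) and group mean (line) of 8 genes in hni9 and WT at low nitrogen and in hni9 and WT at high nitrogen (n = 3 each). In AT5G09570, AT2G41730, AT2G21640, AT4G12500 and AT1G33055 the WT arrays at low nitrogen stand above the arrays of the 3 other groups, while AT1G49570 is highest in hni9 at high nitrogen.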

How the data were processed

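RNA of roots was hybridised to 1 Affymetrix array per sample. The authors deposited 1 intensity per probe set on a linear scale. The values themselves show that each array was scaled so that its mean without the highest and lowest 2% is 500, with distributions that still differ between arrays. The sources used here do not name the software that summarised the probes. Of 22810 probe sets 64 controls were left out. The number of arrays limits the precision.

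From the deposited intensities log2(intensity + 16) was computed. Linear models came from limma 3.58.1 (R 4.3.3), with moderated variances that follow the mean intensity. The fit used 1 mean per group over all 12 arrays and Benjamini-Hochberg adjustment at 0.05, and was tested on simulated data. The labels call the samples biological replicates. Same-numbered arrays of the 2 genotypes at low nitrogen had deviations that correlated at 0.0345, 0.0383 and 0.133, so the numbers were not taken to pair samples. Replicates 1 and 2 correlated across the genotypes at 0.0512 and 0.0315, and replicate 3 with replicate 1 or 2 at -0.0836 to -0.0578. This pattern by replicate was not modelled in the main fit, and a replicate block was run as an alternative.

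The platform annotation gave 1 gene to 13513 probe sets, several to 503 and none to 8730. Of the 13513, 13436 matched a locus of TAIR10.1, from which names and the order of genes along a chromosome were taken. For genes with several probe sets the brightest was used in lists. Gene lists held 28 usable sets. The family lists planned by product name could not be matched, since the annotation used here holds no such names, and were written out as loci instead. The lists of low-energy, flavonoid, SABATH, succinate dehydrogenase, alternative respiration and glyoxylate cycle genes were not among those planned. The planned lipid transfer list was narrowed to the run on chromosome 4, and that of glutathione transferases to the tau class. Shares of called members in such lists are descriptions and not tests. Members, lists and tests were chosen with earlier results of these data known.

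Named genes were the 15 largest called changes in each direction (1 gene, groups apart, the higher mean above the median mean of the table), up to 4 called members per list (or 2 with the smallest p), the 10 smallest adjusted p and the 10 called genes with the smallest p of the difference between supplies. Other list members, such as the rest of the called peroxidases, PMEAMT, NDB4, SDH1-1 and CML38, were named after their values were seen. Alternatives were another value added, quantile normalization, centring, fewer arrays, no trend, a replicate block and a filter on dim probe sets.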

Additional observations from a re-analysis of the deposited data

Results flagged for a closer look

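A difference between the supplies, by the test of the change of hni9 at low minus that at high nitrogen, drew attention to 19 named genes. It was negative, with hni9 lower relative to WT at low than at high nitrogen, for GAT1_2.1 (-3.30), AT5G09570 (-2.99), AT2G21640 (-2.82), AT1G49570 (-2.75), AT4G12500 (-2.66), AT2G41730 (-2.51), AT2G04050 (-2.51), AT5G64110 (-2.40), AT1G33055 (-2.34), AT5G64100 (-1.22), AT1G80380 (-1.08) and AT1G50060 (-0.93). It was positive for AT2G16005 (2.23), AT1G64590 (1.71), CHIL (1.56), AT4G14060 (1.55), AT1G31050 (1.28), AT4G30470 (1.19) and AT4G23670 (0.80). The calls of this difference that leaving out 1 array undid were those of AT1G80380 (any 1 of 11 arrays), GAT1_2.1 (10), AT4G23670 (9), AT1G31050 (8), AT4G30470 (6), CHIL (6), AT2G21640 (1, WT replicate 2 at low nitrogen, adjusted p = 0.0563) and AT1G50060 (1, WT replicate 1 at low nitrogen, adjusted p = 0.055). The short-chain dehydrogenase gene AT1G64590 had 1150, 1063 and 1256 in hni9 and 666, 790 and 878 in WT at low nitrogen, and 492, 620 and 513 in hni9 and 996, 1309 and 1360 in WT at high nitrogen. Its call at low nitrogen (0.57 ± 0.14, adjusted p = 0.0491) was lost without any 1 of 10 arrays (adjusted p from 0.0575 to 0.187), and that of the difference held without each array in turn. AT1G31050 has another probe set whose change at low nitrogen was 0.40 ± 0.17 (adjusted p = 0.321), against 0.89 ± 0.18 (adjusted p = 0.0192) for the one reported. The call of that probe set at low nitrogen was lost without hni9 replicate 2 (0.0635) or WT replicate 1, 2 or 3 (0.0584, 0.0876 and 0.0717).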

How the results depend on the processing

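The counts at low nitrogen depended most on how the variance was modelled and on the number of arrays. Without the intensity trend of the variance limma called 156 probe sets (35 higher and 121 lower in hni9) in place of 469, and 21 for the difference between supplies in place of 160. With replicates 1 and 2 alone it called 83 (17 higher and 66 lower) and 1 for the difference. With only the 6 arrays at low nitrogen 83 of 322 called probe sets were higher. Leaving out 1 array gave 187 to 616 called probe sets, 52 to 213 higher and 135 to 403 lower ones, and 67 to 254 for the difference. Under 1 or 64 added, quantile normalization, centring, a replicate block or without the dimmest 40% the counts stayed within 1.5 times, between 384 and 642. With a replicate block 623 probe sets were called at low nitrogen and 234 for the difference, and no named gene lost its call at low nitrogen. The probe sets called higher at both supplies numbered 89 with the block, 93 without the dimmest 40%, 13 without the trend and 7 with replicates 1 and 2 alone, against 59, and the shared lower ones 66 and 39 under those last 2 settings, against 174. The list counts without each array and the shared counts were added after the data were seen. Of 64 called named genes none changed sign under any alternative run. Calls were lost for 28 without the trend, 36 with replicates 1 and 2 alone and 16 with only the 6 arrays at low nitrogen. For 22 the call was lost when the low nitrogen array of WT replicate 2 was left out. The causes were not tested. Signals near or under 16, which 11.6% to 15% of values on the 6 arrays were, limit the size of changes of dim genes.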

Other observations

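Jacalin-type lectin genes, of proteins that bind sugars, gave a run of neighbours that fell together in hni9 at low nitrogen. They were noticed among called genes with no other protein-coding gene listed between them. AT1G52050 had 1142, 580 and 999 in hni9 and 2180, 2140 and 1941 in WT (-1.24 ± 0.17, adjusted p = 0.00166). AT1G52060 had 2386, 1855 and 1351 in hni9 and 3918, 3039 and 3305 in WT (-0.90 ± 0.18, adjusted p = 0.0152). AT1G52070 had 2520, 2239 and 2225 in hni9 and 4344, 4177 and 3272 in WT (-0.74 ± 0.11, adjusted p = 0.00214). No hni9 array reached a WT array in any of the 3, and neighbours of this kind can share probe signal. Of 4 such pairs of called genes, 3 went in the same direction, the other being the chitinase pair AT2G43590 and AT2G43600. The pairs of the lectin run share AT1G52060 and are not separate, and the remaining pair was that of the peroxidase genes AT5G64100 and AT5G64110. The share of unrelated pairs that would go the same way was not worked out.

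Probe sets called at high nitrogen gave a view of each hni9 array at low nitrogen. Their changes come from arrays that share no sample with those at low nitrogen. Their calls also used the variance from the fit to the arrays of both supplies. The sets were thus not chosen independently of the low nitrogen arrays. Over the 985 called lower there, hni9 replicates 1, 2 and 3 at low nitrogen had median log2 values of -0.23, -0.36 and -0.31 relative to the WT mean at low nitrogen. Over the 759 called higher there, the medians were 0.16, 0.17 and 0.20. All 3 hni9 arrays thus lay on the same side of WT in both sets.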
